A study of Mus musculus with 12 samples.

Results

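Mid1, Hccs, Arhgap6 and Msl3 are 4 protein-coding genes close to the distal end of the mouse X chromosome, and they are 4 of the 22556 genes counted in each library and 4 of the 908 counted on the X chromosome. They were selected by name after the counts had been seen: Mid1 was chosen by its level in 1 clone, C11, which is far above that in the other libraries, and the other three because they lie beside it. The level of Mid1 in C11 is therefore given as a description, with no test. Chromatin-associated RNA (ChrRNA-seq), which is mostly nascent transcript, was measured in iXist-ChrX cells, female mouse embryonic stem cells (mESCs) of a 129S x Cast hybrid in which a TetOn promoter replaces the endogenous Xist promoter on the 129S allele, so that doxycycline (Dox) switches on Xist there. All 12 libraries share this allele. The 3 lines were WT, with a single library in each state (no Dox, or Dox for 24 h); XistDelA, in which the Xist A-repeat is deleted, with clones C1, 2C2 and C11 in each state; and XistDelm6A/T1_11C, in which the 5' m6A region of Xist is deleted, with 2 replicates in each state. The XistDelm6A/T1_11C libraries come from 1 line, and WT has no replicates. The A-repeat deletion is designated differently in the deposited data of C11 and in those of C1 and 2C2. The paper describes both a larger A-repeat deletion and a precise one. The labels name all 3 clones XistDelA, and they are used here as replicates. Whether their deletions differ was not tested, and any such difference goes with the contrast of C11 to C1 and 2C2. The cells were grown on fibroblast feeders and, per the methods of the paper, pre-plated to be free of them before chromatin RNA was taken. Libraries held from 18893447 to 36007145 counts on genes.

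As background, MID1 is an E3 ubiquitin ligase of the TRIM family that sits on microtubules and, through IGBP1, controls the level of the phosphatase PP2A. HCCS attaches haem to cytochrome c in mitochondria, ARHGAP6 is a GTPase-activating protein, and MSL3 is a subunit of the MSL complex, in which KAT8 acetylates histone H4. Xist RNA silences the X chromosome from which it is transcribed, and in the reference strain Mid1 spans the boundary between the X-specific part and the pseudoautosomal region that X and Y share.

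In mm10 coordinates, the counted span of Msl3 lies on the minus strand at chrX:168653098-168673902, Arhgap6 on the plus strand at chrX:168795098-169304440, Hccs on the minus strand at chrX:169311530-169320343 and Mid1 on the plus strand at chrX:169685198-169990797. Each span includes introns. GENCODE M21 ends Mid1 further on, at 170005736, and begins Hccs lower, at 169250193, so that parts of these annotated genes lie outside the counted spans. Read pairs that overlap 2 genes on a strand were left uncounted. RefSeq also lists a Mid1 pseudogene on the Y chromosome, and how read pairs that match more than 1 copy were treated is not given in the sources used here.

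All 4 genes matched promoters in the RefSeq table of GRCm38.p6, which holds 250 bases before to 50 bases after each start. The starts nearest to the counted spans are shown for Mid1, Hccs and Arhgap6, since these are the genes whose levels stood apart in C11, with Dox or in XistDelm6A/T1_11C. The motifs TATAA and GGGCGG were searched on both strands. They cannot overlap each other, and capitals mark their matches. The Mid1 window is chrX:169684949-169685248 on the plus strand, the Hccs window chrX:169320323-169320622 on the minus strand and the Arhgap6 window chrX:168794849-168795148 on the plus strand.
Mid1: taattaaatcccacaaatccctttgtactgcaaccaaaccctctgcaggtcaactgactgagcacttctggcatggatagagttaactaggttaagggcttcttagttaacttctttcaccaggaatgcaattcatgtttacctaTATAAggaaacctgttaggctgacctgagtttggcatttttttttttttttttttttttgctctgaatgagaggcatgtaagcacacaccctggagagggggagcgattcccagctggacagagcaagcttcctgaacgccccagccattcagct
Hccs: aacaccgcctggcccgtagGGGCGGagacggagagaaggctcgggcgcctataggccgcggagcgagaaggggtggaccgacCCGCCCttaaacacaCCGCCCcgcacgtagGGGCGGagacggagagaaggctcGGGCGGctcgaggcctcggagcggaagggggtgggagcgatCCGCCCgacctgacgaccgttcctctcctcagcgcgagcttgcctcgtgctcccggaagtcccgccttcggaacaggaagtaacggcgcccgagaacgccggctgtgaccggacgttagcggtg
Arhgap6: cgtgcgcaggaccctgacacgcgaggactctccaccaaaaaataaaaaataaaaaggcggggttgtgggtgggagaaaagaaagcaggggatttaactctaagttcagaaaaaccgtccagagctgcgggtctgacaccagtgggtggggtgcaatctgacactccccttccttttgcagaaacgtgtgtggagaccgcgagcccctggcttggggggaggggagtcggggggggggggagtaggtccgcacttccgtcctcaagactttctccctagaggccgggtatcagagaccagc
The Mid1 window held 1 match to TATAA and none to GGGCGG, with 43.7% G and C and 2 CpG. The Hccs window held 6 matches to GGGCGG and none to TATAA, with 69.7% G and C and 40 CpG. Neither motif was found in the Arhgap6 window shown, where 57.3% of bases were G or C. The RefSeq table held 3 promoters each for Mid1 and Arhgap6. The other Arhgap6 windows held 1 match to GGGCGG each and none to TATAA, and the other Mid1 windows held neither motif. Of all 32817 promoters in the table, 24.9% held TATAA and 35.6% held GGGCGG on either strand.

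The labels were checked with Xist. It was at 297 RPM (counts on the gene per 1e+06 counts on all genes) in WT without Dox and 5514 RPM with Dox. In XistDelA it went from 124 to 1543 RPM in C1, from 126 to 1267 RPM in 2C2 and from 158 to 1600 RPM in C11, and in XistDelm6A/T1_11C from 100.1 to 3140 RPM in replicate 1 and from 85.6 to 4576 RPM in replicate 2. Xist was thus higher with Dox in 6 of 6 pairs, as the labels state, with a log2 fold change of 3.41 in XistDelA (SE 0.14, edgeR adjusted p = 3.2e-04) and of 5.40 in XistDelm6A/T1_11C (SE 0.41, edgeR adjusted p = 0.0546). Between 98.2% and 99.9% of its counts with a parental genome came from 1 genome, which was taken as 129S, the other being Castaneus.

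Mid1 was the gene with the most counts of all genes in both C11 libraries. Its level in C11 was 9358 RPM in the library without Dox, with a 95% Wilson interval from 9321 to 9395, and 10386 RPM with Dox, with an interval from 10348 to 10424. These are 0.936% and 1.04% of all counts, and both libraries of the clone were high. In C1 it was at 528 RPM without and 581 RPM with Dox, and in 2C2 at 546 and 622 RPM. WT had 609 RPM without and 633 RPM with Dox. The XistDelm6A/T1_11C replicates had 599 and 610 RPM without and 496 and 562 RPM with Dox. The 10 libraries other than C11 thus lay between 496 and 633 RPM, where Mid1 ranked from 199 to 284 among all genes. Over these 10 the lines overlapped. Both XistDelm6A/T1_11C libraries with Dox lay below both without, and those of C1 and 2C2 with Dox lay above both without. C11 stood 17.4 times above the mean of C1 and 2C2 without Dox and 17.3 times with Dox. Intervals cover counting error only, as the reads carry no molecular identifiers.

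**Figure D1:**
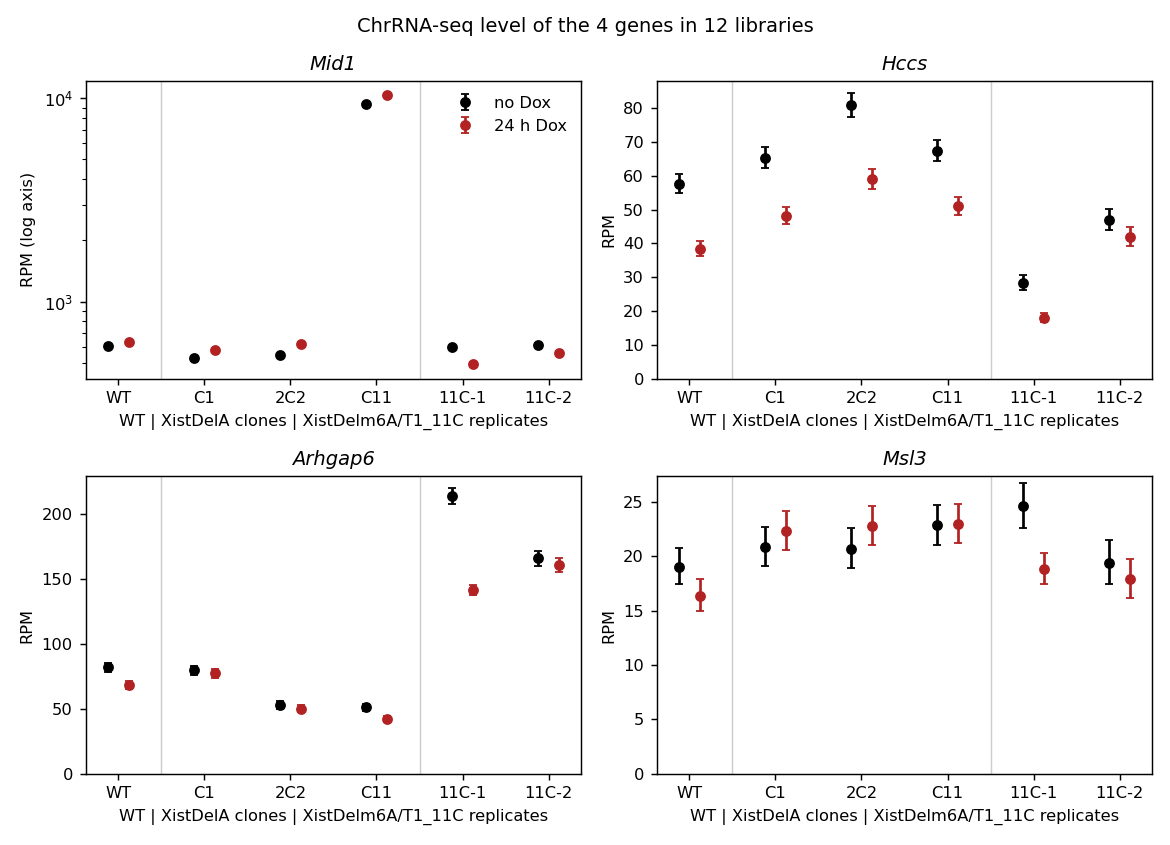
Level of each gene in RPM in the 12 libraries, for WT, the XistDelA clones C1, 2C2 and C11, and replicates 1 and 2 of XistDelm6A/T1_11C (11C-1, 11C-2), without Dox in black and after 24 h of Dox in red. Bars are 95% Wilson intervals, the Mid1 axis is logarithmic, and Mid1 in C11 lies at 9358 and 10386 RPM against 496 to 633 RPM elsewhere.

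Among 12283 genes with a mean count of at least 50, Mid1 was the only one for which both C11 libraries were at least 2 times above all 10 others (0.00814% of genes). The same distance below the others was seen for 4 genes (0.0326%), none of them a member. Without a minimum distance, both C11 libraries were above all others for 2.33% of genes and below them for 4.68%. Hccs, Arhgap6 and Msl3 were in neither set by this rule. Mid1 was chosen by this contrast, so nothing is read from its count.

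Per kb of counted span, Mid1 was at 30.6 and 34.0 RPM per kb in C11 and between 1.62 and 2.07 RPM per kb in the other libraries. Over these 10, Hccs ran from 2.04 to 9.17 RPM per kb, Msl3 from 0.787 to 1.18 and Arhgap6 from 0.0981 to 0.419, so that Hccs and Mid1 overlapped and the others did not. Hccs had the highest median outside C11, 5.39 RPM per kb, followed by Mid1 with 1.93, Msl3 with 0.963 and Arhgap6 with 0.158. In C11 the medians of Hccs, Msl3 and Arhgap6 were 6.72, 1.10 and 0.0912 RPM per kb, so that Mid1 stood first there and the order of the other three was kept.

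None of the neighbours named here stood above all 10 other libraries in C11. Hccs, whose lower coordinate lies 0.374 Mb below that of Mid1, had 67.3 RPM without and 51.1 RPM with Dox in C11, between the values of C1 and 2C2 in both states. Msl3 in C11 was at 22.9 and 23.0 RPM, 1.10 and 1.02 times the mean of C1 and 2C2. Arhgap6 had 51.0 and 41.9 RPM in C11, 0.769 and 0.660 times that mean. Frmpd4, which encodes a scaffold protein of synapses and lies next to Msl3, was at 10.5 and 8.23 RPM in C11 and between 4.78 and 13.2 RPM over all libraries. G530011O06Rik, a non-coding transcript on the opposite strand inside Mid1, was counted by strand and had 2.76 and 3.28 RPM in C11 against 0.159 to 3.96 RPM in the other libraries. That is 1.26 and 2.11 times the mean of C1 and 2C2, whose 4 libraries had 1.50 to 2.37 RPM, all below C11, while WT had 3.96 and 3.13 RPM. C11 thus fell inside the range of the 10 other libraries for both of these genes.

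From 4.69 Mb below the start of Mid1 to the end of the X chromosome 23 genes were counted, and 14 of them had a mean count of at least 50. Without Mid1, the log2 ratio of C11 to the mean of C1 and 2C2 had a median of -0.034 over 13 genes without Dox, from -0.70 to 0.77, and of -0.059 with Dox, from -0.60 to 0.19. The ratio of Mid1 was 4.12 and 4.11.

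**Figure D2:**
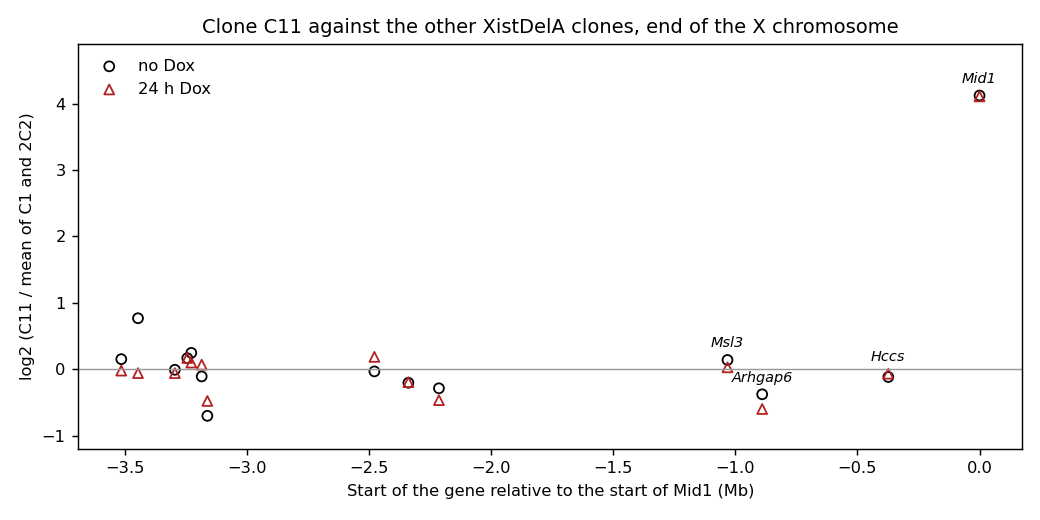
Log2 ratio of clone C11 to the mean of clones C1 and 2C2 for the 14 genes at the end of the X chromosome with a mean count of at least 50, by the distance of each gene's lower coordinate from that of Mid1 in Mb. Circles are libraries without Dox and triangles with Dox, and Mid1 lies at 4.12 and 4.11 while the other 13 genes lie between -0.70 and 0.77.

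Nearly all Mid1 counts with a parental genome came from Castaneus, in C11 and elsewhere. The 129S share was 1.21% in WT without Dox (95% exact interval 0.988% to 1.47%) and 1.50% with Dox (1.26% to 1.77%), and between 0.542% and 1.50% over the 10 libraries other than C11. In C11 it was 0.222% in both states, with intervals from 0.195% to 0.252% and from 0.197% to 0.249%, below those of all other libraries. The Castaneus counts of Mid1 stood at 4251 and 4687 RPM in C11 and from 245 to 320 RPM elsewhere, and the 129S counts at 9.47 and 10.4 RPM against 1.44 to 4.86 RPM. Of all Mid1 counts in C11, 45.5% and 45.2% had a parental genome, against 48.6% to 52.6% in the other libraries.

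**Figure D3:**
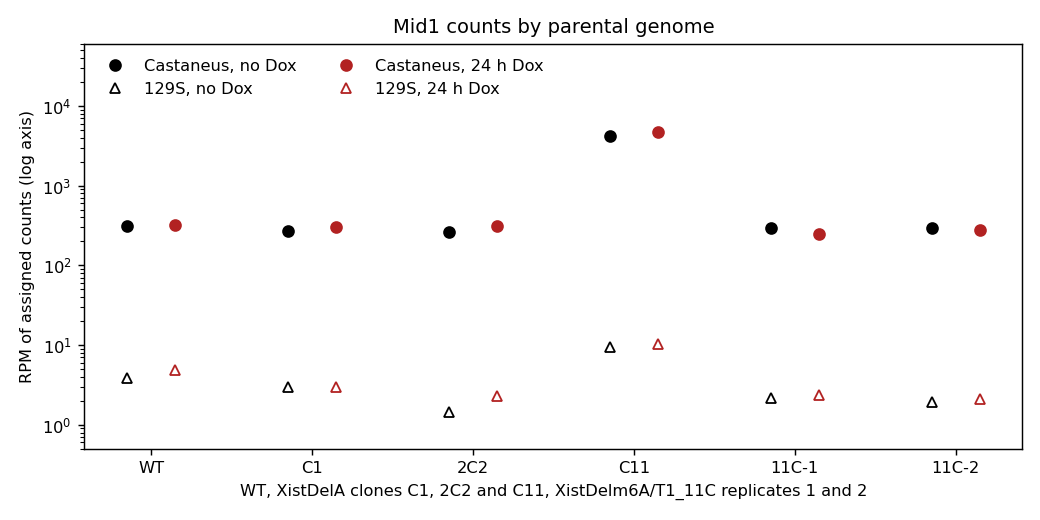
Mid1 counts assigned to Castaneus (filled circles) and 129S (open triangles) in RPM on a logarithmic axis, without Dox in black and after 24 h of Dox in red, with 11C-1 and 11C-2 the replicates of XistDelm6A/T1_11C. In C11 Castaneus counts lie at 4251 and 4687 RPM and 129S counts at 9.47 and 10.4 RPM.

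The same held for the other three genes. Over the 12 libraries the 129S share ran from 0% to 1.12% for Hccs, from 0% to 0.993% for Arhgap6 and from 0% to 2.51% for Msl3. Where no 129S count was seen, a limit of 3 counts, in place of the exact interval used for Mid1, allowed a share of up to 0.754% and 0.558% for Hccs, 0.190% for Arhgap6 and 1.29% to 1.69% for Msl3. In WT without Dox the median 129S share was 0.474% over the 14 genes at the X end, 44.4% over 470 X-linked genes and 52.0% over autosomal genes. At the X end, the median Xi/(Xi+Xa) in WT, as read from assigned counts, was thus close to 0 before Xist was switched on. How much RNA the chromosome with the inducible Xist gave there was not tested. In total counts, the 14 genes had a median log2 change of -0.45 with Dox in WT. The measured share of a single gene could fall by at most its own value, a limit that does not hold for its total level. Hccs in WT had a share of 0.398% without Dox and went from 57.6 to 38.4 RPM with Dox. Over the 14 genes the highest share without Dox was 3.04% in WT and 6.41% in XistDelm6A/T1_11C replicate 1.

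Markers of cell types were read in the same libraries, those of fibroblasts included although the RNA came from pre-plated cells. The summed RPM of 8 mESC markers was 2132 and 2168 in C11 and from 1609 to 2372 in the other libraries, with Zfp42 the most abundant in C11 and Sox2 at 0 in all 12 libraries. For 8 fibroblast markers it was 8.92 and 9.32 against 4.70 to 14.3, with Col1a2 the most abundant in C11, Lum at 0 there and Thy1 below all other libraries. The 8 primitive endoderm markers summed to 219 and 237, inside the range of the other libraries, which reached 285, led by Lamb1. Early lineage markers summed to 28.7 and 31.8 in C11 against 31.8 to 86.4 elsewhere, led by Otx2, with Sox1 at 0 throughout, and of these 8, Pax6 was above and Otx2 below all other libraries in C11. The high end of this range was XistDelm6A/T1_11C: without Dox the early lineage sum was 86.4 and 55.3 RPM in its replicates, 40.7 in WT and 48.5, 35.5 and 31.8 in the XistDelA clones, and Otx2 was at 64.7 and 40.5 RPM against 16.0 to 32.5 in the other lines. With Dox the early lineage sums were 68.7 and 40.6 RPM, the lower of them below the 44.9 RPM of C1. Within pairs this sum was lower with Dox except in 2C2 (35.5 and 36.9 RPM). Zfp42 was higher with Dox in WT (646 to 883 RPM), C1 (689 to 912), 2C2 (621 to 908) and C11 (698 to 887). Its change within the XistDelm6A/T1_11C pairs is not given here. In that line it was at 631 RPM in replicate 1 without Dox and 493 RPM in replicate 2 with Dox. The part of any of these markers in the level of Mid1 or in the Dox changes of the members was not tested. Fewer cells of a type and less RNA per cell cannot be told apart in such libraries.

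The genes whose pattern over the 12 libraries was most like that of Mid1, by Pearson correlation of log2(RPM + 0.5) among 12282 genes, were Stk38l (r = 0.967), Mrps35 (0.924), Bms1 (0.909), Caprin2 (0.901) and Bcl2l13 (0.896). All 5 lie on chromosome 6. Stk38l had 111 and 115 RPM in C11 and 64.8 to 76.6 RPM elsewhere, a gap far smaller than that of Mid1. The points include 2 libraries of each clone or replicate, and these values rest on C11: none of the 5 was among the 5 most alike by Spearman correlation, or by Pearson correlation over the 10 libraries other than C11.

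The question put to the Dox comparison is whether these genes were lowered when Xist was switched on. Hccs was lower with Dox in 6 of 6 pairs. It went from 57.6 to 38.4 RPM in WT, from 65.3 to 48.2 in C1, from 80.8 to 59.0 in 2C2 and from 67.3 to 51.1 in C11. In XistDelm6A/T1_11C it went from 28.4 to 18.0 RPM in replicate 1 and from 46.9 to 41.9 RPM in replicate 2. The 3 XistDelA libraries with Dox (52.7 ± 5.59 RPM, SD, n = 3) all lay below the 3 without (71.2 ± 8.43 RPM, SD, n = 3). In XistDelA the log2 fold change was -0.46 (SE 0.12), which did not pass the edgeR quasi-likelihood test over 14866 genes (adjusted p = 0.203), where 3 genes passed (0.0202%), Xist, Rapgef4 and Cdh3, where Rapgef4 and Cdh3 are named after their values were seen. Without clone 2C2 none did, 710 genes having an unadjusted p under 0.05 in edgeR, and DESeq2 on all clones called 362. With the clone as a replicate block, which compares each clone with itself, Hccs fell by 0.46 (SE 0.057, edgeR adjusted p = 4.9e-07). In that fit 14.8% of genes rose and 14.9% fell. With DESeq2 in place of edgeR, Hccs passed as well (adjusted p = 0.0488). Over all alternatives the adjusted p of Hccs ran from 4.9e-07 to 0.909 with edgeR or DESeq2.

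In XistDelA the change of Hccs was below that of most X-linked genes. Its log2 change in C1, 2C2 and C11 was -0.44, -0.45 and -0.40, where the medians of 470 X-linked genes were -0.066, -0.064 and -0.10, and 9.57%, 6.17% and 10.2% of these genes were lower. In WT, Hccs changed by -0.58 (interval -0.70 to -0.47), near the X-linked median of -0.53. Counts assigned to Castaneus alone changed by -0.61 in WT and by -0.47, -0.48 and -0.46 in the clones, close to the totals. The XistDelm6A/T1_11C replicates differed, with a change of -0.66 in replicate 1, where 32.1% of X-linked genes were lower, and of -0.16 in replicate 2, where 83.8% were lower and the X-linked median was -0.45. Their Castaneus counts changed by -0.67 and -0.20.

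Mid1 was higher with Dox in the 3 XistDelA clones and in WT and lower in both XistDelm6A/T1_11C replicates. The log2 change was 0.14, 0.19 and 0.15 in C1, 2C2 and C11, 0.055 in WT, and -0.27 and -0.12 in XistDelm6A/T1_11C. With TMM library sizes the WT value was 0.021. Without the block Mid1 did not pass in XistDelA, where the clones differed far more than the states (log2 fold change 0.13, SE 1.42, edgeR adjusted p = 0.978), and without C11 it was 0.12 (SE 0.095, edgeR adjusted p = 0.608). With the clone as a block Mid1 rose by 0.13 (SE 0.044, edgeR adjusted p = 0.0226), the adjusted p over all alternatives running from 0.0226 to 0.995. DESeq2 gave no p for Mid1 here. In every pair the change of Mid1 was above that of most X-linked genes, with 78.9% to 98.5% of them lower. Their median 129S share in WT without Dox was 44.4%, against 1.21% for Mid1. Over the 14 genes at the X end, Mid1 included, this median was 0.474%, and their median log2 change in WT was -0.45. The part of the 129S share in the Dox change of Mid1 was not tested. Of autosomal genes, 53.0% were lower than Mid1 in WT and 67.6%, 64.55% and 74.1% in C1, 2C2 and C11. In XistDelm6A/T1_11C replicates 1 and 2, 9.69% and 40.9% were lower.

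Arhgap6 was lower with Dox in 6 of 6 pairs, by log2 values from -0.60 in XistDelm6A/T1_11C replicate 1 to -0.043 in C1. It had intervals for counting error that included 0 in C1 (-0.13 to 0.045), 2C2 (-0.20 to 0.025) and XistDelm6A/T1_11C replicate 2 (-0.11 to 0.025). In XistDelA it went from 79.5 to 77.2 RPM in C1, from 53.0 to 50.0 in 2C2 and from 51.0 to 41.9 in C11, and the 2 states overlapped (log2 fold change -0.14, SE 0.25, edgeR adjusted p = 0.840). With the block it fell by 0.16 (SE 0.060, edgeR adjusted p = 0.0449, from 0.0449 to 0.984 over all alternatives). Msl3 was at 20.8, 20.7 and 22.9 RPM without and 22.3, 22.8 and 23.0 RPM with Dox in the clones, and passed neither fit (log2 fold change 0.053, SE 0.091, edgeR adjusted p = 0.838). In WT Msl3 went from 19.1 to 16.4 RPM and Arhgap6 from 81.9 to 68.2 RPM. In XistDelm6A/T1_11C Msl3 went from 24.6 to 18.8 RPM in replicate 1 and from 19.4 to 17.9 RPM in replicate 2, so that it was lower with Dox there and in WT and not in the clones.

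**Figure D4:**
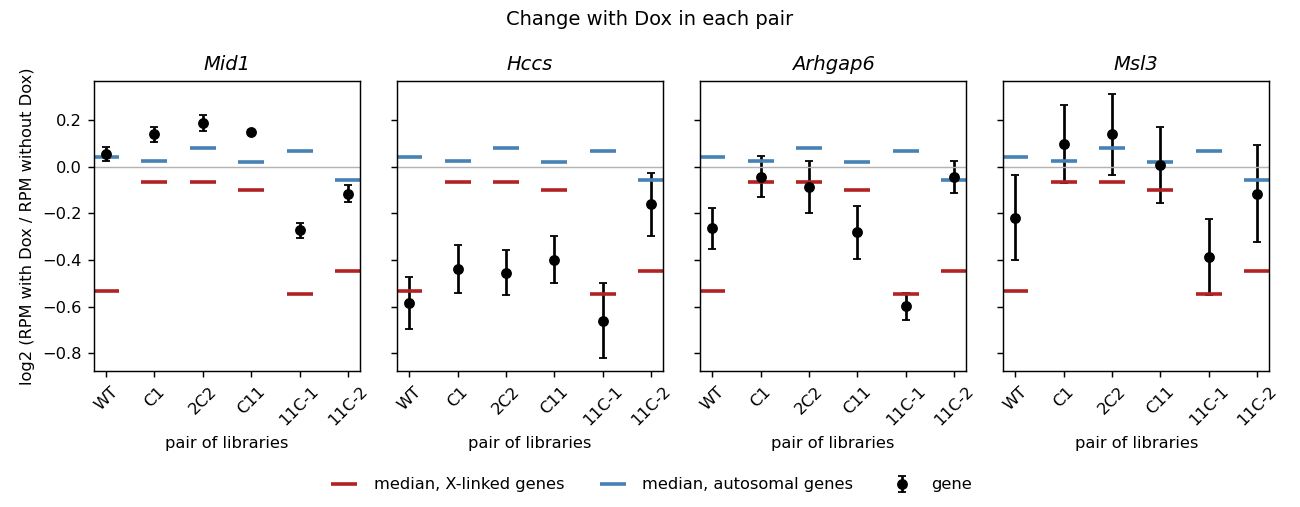
Log2 ratio of RPM with Dox to RPM without in each of the 6 pairs, for each gene (black, with 95% intervals for counting error), beside the median of 470 X-linked genes (red) and of 11811 autosomal genes (blue), with 11C-1 and 11C-2 the replicates of XistDelm6A/T1_11C. Hccs lies below 0 in all 6 pairs, while Mid1 lies above the X-linked median in all 6.

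In XistDelm6A/T1_11C none of the 4 genes passed. The log2 fold change with Dox was -0.30 (SE 0.51) for Hccs, -0.32 (SE 0.24) for Arhgap6, -0.26 (SE 0.24) for Msl3 and -0.19 (SE 0.25) for Mid1. None of 15140 genes passed in edgeR (0%), 173 had an unadjusted p under 0.05, and DESeq2 called 3. When either replicate was left out, Xist alone passed in edgeR. A p that misses the threshold with 2 replicates does not show that values did not differ. Each value was closer to 0 without replicate 1 than without replicate 2, -0.079 and -0.74 for Hccs, -0.033 and -0.47 for Msl3 and -0.034 and -0.35 for Mid1. The Arhgap6 value rested on replicate 1, where it went from 213 to 141 RPM, since in replicate 2 it went from 165.5 to 160 RPM and the value without replicate 1 was 0.038. The Dox change of the 4 genes did not pass a test of the difference between XistDelm6A/T1_11C and XistDelA, in which 0 of 15745 genes passed in edgeR (0%), 233 had an unadjusted p under 0.05 and DESeq2 called 2. In edgeR that difference had a median of -0.38 over 470 X-linked genes, 435 of them below 0. Over the 14 genes at the X end the median was -0.30, with 12 below 0. For the members the difference was -0.31 (SE 1.90) for Mid1, -0.29 (SE 0.20) for Msl3, -0.15 (SE 0.38) for Arhgap6 and 0.18 (SE 0.51) for Hccs. Its sign was not stable for the last pair of genes, at 0.19 for Arhgap6 without XistDelm6A/T1_11C replicate 1 and at -0.27 for Hccs without replicate 2, and without replicate 1 Msl3 was at -0.083 and Mid1 at -0.17.

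Among the 14 genes at the X end, the median log2 fold change with Dox was -0.17 in XistDelA, beside -0.11 over 470 X-linked genes and 0.011 over all genes tested. With the block 8 of the 14 fell and 1, Mid1, rose, and over the 470 X-linked genes 174 fell and 45 rose. In XistDelm6A/T1_11C all 14 values were below 0, as were those of 463 of the 470 X-linked genes, with a median of -0.29 beside -0.48 over X-linked genes and -0.0012 over all genes tested. These medians depended on the replicates, with -0.096 beside -0.36 without replicate 1, where 13 of the 14 were below 0, and -0.59 beside -0.63 without replicate 2. In the WT pair 13 of 14 were below 0, Mid1 being the exception, beside 459 of the 470 X-linked genes.

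Arhgap6 was higher in XistDelm6A/T1_11C than in the other lines. Its 4 XistDelm6A/T1_11C libraries had 213, 165.5, 141 and 160 RPM, and the 8 others at most 81.9 RPM. The lines without Dox were compared after these values had been seen, so that this test is no independent support: the log2 fold change to XistDelA was 1.52 (SE 0.26, edgeR adjusted p = 0.00446), in a comparison where 9.99% of genes were higher and 9.86% lower. Without clone 2C2 it was 1.43 and no longer passed (edgeR adjusted p = 0.0529, from 6.2e-06 to 0.0529 over all alternatives), and 539 genes passed in place of 3125. Without C11 1334 genes passed. Hccs was lower in XistDelm6A/T1_11C by a value short of the threshold (-1.01, SE 0.37, edgeR adjusted p = 0.0795), which passed with DESeq2 (adjusted p = 0.0280) and when either XistDelm6A/T1_11C replicate was left out (-0.66 without replicate 1, -1.50 without replicate 2). With 1 library left in that line the spread came from the XistDelA clones alone, so the calls without a replicate do not support the difference. Msl3 was at -0.081 (SE 0.14, edgeR adjusted p = 0.716). For Mid1, which was chosen by its level in C11, the comparison is given without that clone, where it was 0.063 (SE 0.20, edgeR adjusted p = 0.860). The line and any other difference between its libraries and the rest cannot be told apart, and the part of its early lineage markers, higher without Dox, in the level of Arhgap6 was not tested.

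Genes that work with Msl3, Mid1 and Hccs were taken from lists. In the MSL complex, none of 4 genes passed with Dox in XistDelA in edgeR, in either fit, or in DESeq2. The number with an unadjusted p under 0.05 was 0 in edgeR without the block and in DESeq2 and 1 with the block. Their median log2 fold change was 0.074 beside 0.011 over all genes tested, and Msl2 was the most abundant of them. Of 13 partners and paralogues of MID1, 12 were tested and none passed in edgeR, with a median of -0.10, 2 with an unadjusted p under 0.05 and 1, Ppp2r1a, called by DESeq2. With the block, where 14.8% of all genes rose and 14.9% fell, 3 of the 12 fell and 1 rose, so that nothing particular to this list is read from the counts. The 3 were Ppp2r1a (-0.30), Ppp2cb (-0.26) and Ppp2r1b (-0.19), which encode subunits of PP2A, and the fourth was Rptor (0.18), which encodes a subunit of mTORC1. Ppp2ca, for a catalytic subunit of PP2A and named after its values were seen, did not pass with the block (-0.12, edgeR adjusted p = 0.0663). The paralogue Mid2 was low, from 2.73 to 11.3 RPM, and was not raised in C11. Of 5 cytochrome c genes, none passed in edgeR without the block or in DESeq2, with a median of 0.12 and 1 with an unadjusted p under 0.05, and with the block, beside the same shares of 14.8% and 14.9% over all genes, Apaf1 (0.35) and Cyct (0.33) rose and Cyc1 (-0.27) fell. In XistDelm6A/T1_11C no gene of these lists passed in edgeR without the block or in DESeq2, Mid2 alone having an unadjusted p under 0.05. Blocked by replicate, Mid2 fell by 1.04 (edgeR adjusted p = 0.00164), and its difference from XistDelA was -1.32 (edgeR adjusted p = 0.00690). In these blocked fits 1.34% of all genes fell with Dox and 0.565% had a lower change than in XistDelA, and of the 470 X-linked genes, to which Mid2 belongs, 134 and 58 did, so that nothing particular to Mid2 is read from its calls. Neither passed without the block.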

How the data were processed

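ChrRNA-seq read pairs were counted by the authors with featureCounts (version 1.5.2) on mm10 gene spans, introns included and by strand, and deposited as counts without normalization, for all pairs and for those assigned to each parental genome. The submitters' processing notes also name STAR (version 2.4.2a) and Bowtie2 (version 2.3.2). RPM, the counts per 1e+06 counts, was computed over all counts on genes, and log2 ratios per pair with a pseudocount of 0.5. Across genes, quasi-likelihood tests of edgeR (version 4.0.16) were used after TMM scaling and filterByExpr (minimum count 10), with Benjamini-Hochberg adjustment over all genes tested and a threshold of 0.05. DESeq2 (version 1.42.0), no filter, a replicate block, all 12 libraries in 1 fit and leaving out each replicate were alternatives. R 4.3.3 and Python with scipy were used for these and for the intervals. The clone names pair the XistDelA libraries: deviations from the group means of the same clone had correlations of 0.595, 0.368 and 0.537 over 16254 genes. The methods of the paper speak of biological replicas for this assay, and the labels give the XistDelm6A/T1_11C replicates by number only, so that their p-values measure the spread between these libraries. WT has 1 library in each state, so no WT contrast was tested, and its libraries entered only the fit of all 12. The members and lists were chosen with earlier results of these data known, and the comparison of lines without Dox was added after the values were seen. Genes named are the 4 members, Xist, X-linked genes with a mean count of at least 10 within 1 Mb of the members, list members that passed a test or else the most abundant, and the 5 genes most like Mid1. Genes from the marker lists are named for their levels, and Rapgef4, Cdh3 and Ppp2ca were named outside this rule after their values were seen.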

Additional observations from a re-analysis of the deposited data

Results flagged for a closer look

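The Dox changes of Mid1 and Msl3 had opposite signs in the 2 deletion lines: each XistDelA clone had a value above 0 and both XistDelm6A/T1_11C replicates one below 0. Of 470 X-linked genes, 285, 265 and 313 were below 0 in C1, 2C2 and C11. In XistDelm6A/T1_11C replicates 1 and 2, 454 and 449 were. For Msl3 the log2 change in C11 was 0.0075 (interval -0.15 to 0.17), and -0.019 from Castaneus counts, and the intervals of all 3 clones and of XistDelm6A/T1_11C replicate 2 (-0.12, from -0.32 to 0.092) include 0. The mean log2 change in XistDelm6A/T1_11C minus that in XistDelA was -0.35 for Mid1 and -0.33 for Msl3. In edgeR the difference was -0.31 and -0.29, beside a median of -0.38 over 470 X-linked genes, of which 435 were below 0. Nothing particular to Mid1 or Msl3 is therefore read from it. Neither passed the edgeR test of that difference (adjusted p = 1.00 for both, and 0.439 and 0.457 with the replicate block), so the opposite directions are given as values. No group held 4 or more libraries, so no library was flagged for standing apart from its group, and the distance of C11 from C1 and 2C2 is a description.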

How the results depend on the processing

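The number of genes passing with Dox in XistDelA went from 3 to 362 with DESeq2 and to 4410 with the replicate block, and to between 0 and 2 without 1 clone. In XistDelm6A/T1_11C it went from 0 to 3 with DESeq2, 2 without the filter, 2 with all 12 libraries, 237 with the replicate block, and 1 when either replicate was left out, where the lone pair is assumed to vary like the XistDelA clones. These replicates share only a number (correlation 0.691, 2 pairs), and none of the 4 members passed with that block. For the difference between lines the count went from 0 to 2 with DESeq2 and 117 with the replicate block. For the lines without Dox it went from 3125 to between 539 and 3844 without 1 clone or replicate. In XistDelA, the replicate block brought Mid1 (0.13), Hccs (-0.46) and Arhgap6 (-0.16) past the threshold, and DESeq2 brought Hccs (-0.47). The block changed no other call of a member. Leaving out 1 replicate, Arhgap6 with Dox in XistDelm6A/T1_11C ran from -0.68 to 0.038, and the difference between lines from -0.53 to 0.19 for Arhgap6, from -0.27 to 0.38 for Hccs, from -0.48 to -0.17 for Mid1 and from -0.51 to -0.083 for Msl3. Without Dox, the line difference then ran from -1.50 to -0.66 for Hccs, which passed when either XistDelm6A/T1_11C replicate was left out and with DESeq2 (-1.04), from 1.38 to 1.74 for Arhgap6 and from -0.20 to 0.028 for Msl3. The log2 ratio of Mid1 in C11 was 4.12, and 3.96 from allelic counts only. The cause of these shifts was not tested. DESeq2 gave no p for Mid1 with C11 in the fit. Of all alternatives, 114 kept direction and side of the threshold or stayed within the spread, 19 moved, 8 crossed the threshold and 4 changed sign. The 129S counts, at most 13 in a library, limit the allelic shares of Hccs, Arhgap6 and Msl3.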
